A study of Homo sapiens with 4 samples.

Results

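The hyaluronan matrix genes were followed in human cells at day 2 of hematopoietic differentiation. The group held 7 genes of the 17894 listed in each library, namely the synthases HAS2 and HAS3, the link proteins HAPLN1 and HAPLN3, the proteoglycan VCAN and the receptors CD44 and HMMR. They were found by their symbols. The group was chosen by measured values, because HAPLN1 had the largest difference below control, averaged over the LGR4-/- libraries in log2(FPKM+1), of all genes past a filter, so that the LGR4-/- comparison is given as a description with no test. All 7 genes had a mean of at least 1 FPKM over the libraries (fragments per kilobase of transcript, scaled to the mapped fragments of the library, a level per length that can be compared between genes), the filter that left 12697 genes of the whole table.

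H1 human embryonic stem cells were co-cultured with mAGM-S3, a mouse stromal cell line, and human cells were sorted with the TRA-1-85 antibody. The study held 1 library of wild type control cells, 1 library of wild type cells treated with R-spondin2 (20 ng/mL, the first 1 day), and 2 libraries of LGR4-/- cells whose own labels name no R-spondin2, all collected at day 2. R-spondin2 is a secreted WNT agonist and LGR4 encodes one of its receptors. The 2 LGR4-/- libraries are numbered in the labels, which do not say whether they came from separate clones or how the gene was disrupted. They are called LGR4-/- 1 and LGR4-/- 2 here. No comparison has a replicate on the control side, so no p-value is given.

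Hyaluronan is a long unbranched sugar polymer that synthases in the plasma membrane extrude into the space around the cell. Link proteins clamp it to proteoglycans of the lectican family such as versican, the product of VCAN, which makes a hydrated gel. In the early embryo such a gel fills the space that migrating mesoderm enters and swells the heart cushions, and mice without Has2, versican or link protein 1 have heart defects. CD44 binds hyaluronan at the cell surface, while HMMR is best known inside dividing cells, at the mitotic spindle.

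The estimated depth was between 8700000 and 8920000 reads a library, from low FPKM values taken as whole reads. The summed FPKM of all genes ran from 433574 to 437112. LGR4 itself was at 21.8 FPKM in control, 24.3 FPKM with R-spondin2, 7.40 FPKM in LGR4-/- 1 and 13.95 FPKM in LGR4-/- 2. Its RNA was still present in both LGR4-/- libraries, and at a higher level in LGR4-/- 2. Across the 12697 genes, the SD of the differences in log2(FPKM+1) from control was 0.213 for R-spondin2, 0.410 for LGR4-/- 1 and 0.315 for LGR4-/- 2. It was 0.222 between the 2 LGR4-/- libraries.

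The 7 genes did not move together. HAPLN1 and HAS2 were lower in both LGR4-/- libraries than in control and higher with R-spondin2. HAPLN3, HAS3 and VCAN were higher in both LGR4-/- libraries and lower with R-spondin2. CD44 and HMMR lay close to control in all libraries. In these comparisons the control library is shared, so the values of each are given side by side below. In each of the 7 genes, CD44 and HMMR included, both LGR4-/- libraries lay on the same side of both wild type libraries. For CD44 the gap was only between 3.35 FPKM in LGR4-/- 2 and 3.36 FPKM in control. The share of all genes ordered in this way was not counted, so nothing is read from this order.

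**Figure D1:**
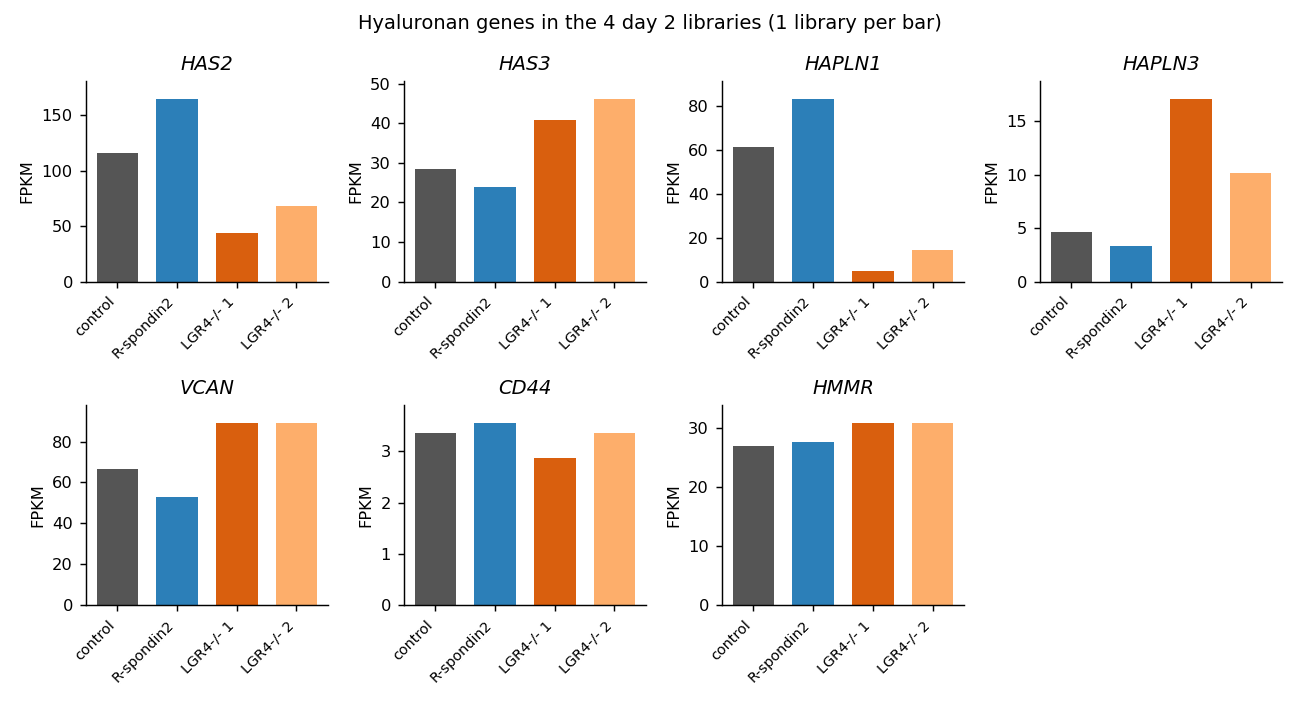
FPKM (linear axis from 0, scaled for each gene) of the 7 hyaluronan genes in the 4 libraries, 1 bar per library. HAPLN1 stood at 83.04 FPKM with R-spondin2 and at 4.99 FPKM in LGR4-/- 1, while HAPLN3 had its highest bar, 17.1 FPKM, in LGR4-/- 1.

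Among the synthases, HAS2, the main synthase of the embryo, had the highest mean level of the 7 genes, 98.1 FPKM. It was at 115.7 FPKM in control, 164.4 FPKM with R-spondin2, 43.9 FPKM in LGR4-/- 1 and 68.5 FPKM in LGR4-/- 2. Both LGR4-/- libraries lay below both wild type libraries. The level in LGR4-/- 1 was 2.64-fold lower and in LGR4-/- 2 was 1.69-fold lower than in control. With R-spondin2 it was 1.42-fold higher, with a 95% exact interval of 1.37 to 1.48 for counting error, from 5992 and 4324 implied reads. On the log2(FPKM+1) scale this difference of 0.50 ranked 118 from the highest of 12697 genes.

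HAS3, a second synthase of the same family, was higher in both LGR4-/- libraries than in both wild type libraries. Its level was 28.4 FPKM in control, 23.9 FPKM with R-spondin2, 40.7 FPKM in LGR4-/- 1 and 46.0 FPKM in LGR4-/- 2. The LGR4-/- libraries were 1.43-fold and 1.62-fold above control, and the R-spondin2 library was 15.7% below it (percent change -15.7). HAS3 has 3 listed transcripts of very different length, so the reads behind the control value lie between 295 and 1069. At the lower count the interval of the R-spondin2 ratio ran from 0.707 to 1.00, and the difference was at the limit of what the depth can show. HAS1 was listed at 0.27 FPKM or less in all libraries.

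The make-up of the synthase RNA differed between libraries. HAS2 held 80.2% of the summed synthase FPKM in control, 87.3% with R-spondin2, 51.8% in LGR4-/- 1 and 59.7% in LGR4-/- 2. The sum itself was 144.2 FPKM in control, 188.3 FPKM with R-spondin2, 84.8 FPKM in LGR4-/- 1 and 114.8 FPKM in LGR4-/- 2. The ratio of HAS2 to HAS3 was 4.08 in control and 6.87 with R-spondin2. It was 1.08 in LGR4-/- 1 and 1.49 in LGR4-/- 2, where the 2 synthases were at similar levels. The antisense gene of HAS2 is not listed in the files, and since counting by strand is not stated, reads from it cannot be told apart from HAS2 reads.

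**Figure D2:**
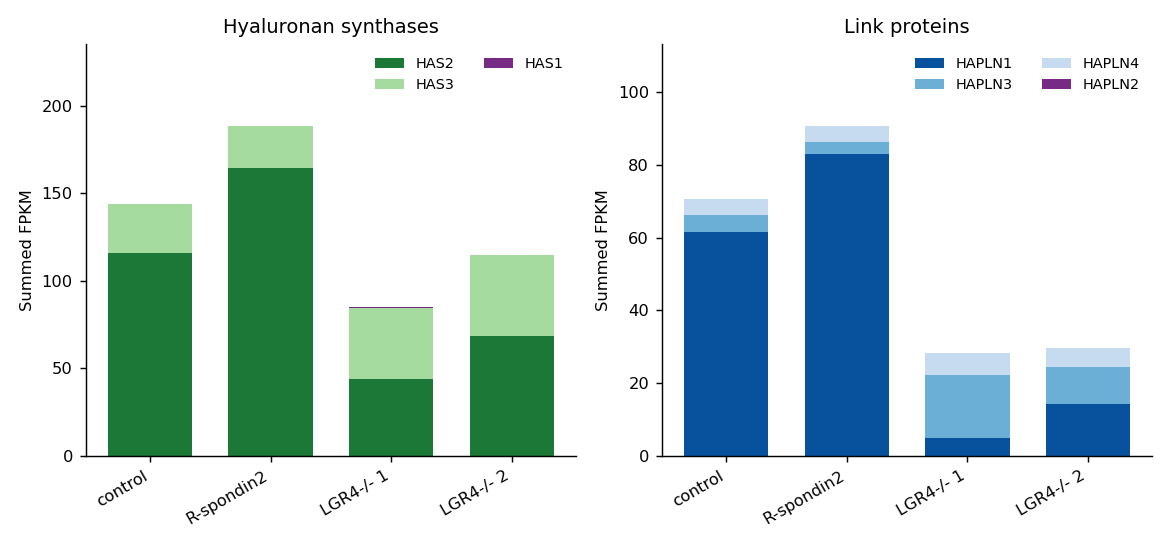
Stacked FPKM of the synthase genes (left) and the link protein genes (right), 1 bar per library on axes from 0. HAS2 made up 80.2% of the synthase bar in control and 51.8% in LGR4-/- 1, and HAPLN1 made up 87.1% and 17.7% of the link protein bar.

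HAPLN1 encodes the link protein that is best known from cartilage and from the embryonic heart. Its level was 61.5 FPKM in control, 83.04 FPKM with R-spondin2, 4.99 FPKM in LGR4-/- 1 and 14.3 FPKM in LGR4-/- 2. The LGR4-/- libraries were far below both wild type libraries and also differed from each other. LGR4-/- 1 was 12.3-fold below control, from 249 and 3077 implied reads, and LGR4-/- 2 was 4.30-fold below it, from 706 reads. The mean difference of -2.71 on the log2(FPKM+1) scale was the one that chose the group; the next lowest values were -2.33 for HAND1 and -2.26 for GYPB, neither of which belongs to it. The R-spondin2 comparison was not the one that chose the group, but it shares the control library with it. With R-spondin2, HAPLN1 was 1.35-fold higher (interval 1.29 to 1.42 for counting error) and its difference of 0.43 ranked 228 from the highest.

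HAPLN3, a link protein with a wider tissue distribution, went the other way. It was at 4.68 FPKM in control, 3.30 FPKM with R-spondin2, 17.1 FPKM in LGR4-/- 1 and 10.2 FPKM in LGR4-/- 2. Both LGR4-/- libraries lay above both wild type libraries. The FPKM in LGR4-/- 1 was 3.65-fold (interval 2.74 to 4.84) and in LGR4-/- 2 was 2.18-fold (interval 1.60 to 2.95) that of control. The mean LGR4-/- difference of 1.33 on the log2(FPKM+1) scale ranked 8 from the highest of all genes. With R-spondin2 the FPKM ratio to control was 0.705, but at 44 and 65 implied reads its interval of 0.462 to 1.03 included no difference.

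HAPLN1 made up 87.1% of the summed link protein FPKM in control and 91.6% with R-spondin2, against 17.7% in LGR4-/- 1 and 48.3% in LGR4-/- 2. HAPLN3 made up 6.63% in control and 60.5% in LGR4-/- 1, where it was the most abundant link protein RNA at 3.42 times the FPKM of HAPLN1. In LGR4-/- 2 HAPLN1 was still above HAPLN3, by a ratio of 1.40. The summed level was 70.6 FPKM in control, 90.6 FPKM with R-spondin2, 28.2 FPKM in LGR4-/- 1 and 29.6 FPKM in LGR4-/- 2. The sum was lower in both LGR4-/- libraries than in both wild type libraries, although HAPLN3 was higher. HAPLN4, a link protein of the brain, was between 4.28 and 6.12 FPKM in all 4 libraries, and HAPLN2 was at 0.06 FPKM or less.

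VCAN encodes versican, the lectican of embryonic matrix. It was at 66.4 FPKM in control, 53.1 FPKM with R-spondin2, 89.1 FPKM in LGR4-/- 1 and 88.9 FPKM in LGR4-/- 2. The 2 LGR4-/- values were nearly the same and lay 1.34-fold above control each. The R-spondin2 value lay below it at a ratio of 0.80 (interval 0.735 to 0.872). The intervals use the shortest of the 4 listed transcripts, 2087 bases, and would be narrower with a longer one. VCAN held between 95.7% and 97.3% of the summed lectican FPKM in every library, with ACAN, BCAN and NCAN at 2.77 FPKM or less. The ratio of VCAN to HAPLN1 was 1.08 in control and 0.640 with R-spondin2, and 17.8 and 6.22 in LGR4-/- 1 and 2.

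CD44, the principal hyaluronan receptor, was low at 3.36 FPKM in control, 3.55 FPKM with R-spondin2, 2.86 FPKM in LGR4-/- 1 and 3.35 FPKM in LGR4-/- 2. Depending on which of its 8 listed transcripts was present, the control value stands for 15 to 172 reads. At 15 reads the interval of the R-spondin2 ratio runs from 0.467 to 2.25, so a difference was not detectable. The files give 1 value per gene, and the standard and variant forms of CD44 cannot be separated. ESRP1, a splicing factor that favors variant CD44 in epithelial cells, was at 24.2 FPKM in control, 18.2 FPKM with R-spondin2, 42.1 FPKM in LGR4-/- 1 and 39.0 FPKM in LGR4-/- 2.

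HMMR was at 26.9 FPKM in control, 27.8 FPKM with R-spondin2, and 30.9 FPKM in both LGR4-/- libraries. The LGR4-/- values were 1.15-fold above control, with a lower bound of 1.02 for counting error in each library. The R-spondin2 ratio of 1.03 had an interval of 0.910 to 1.17. Its 19 listed partners of mitosis, such as TPX2, which activates Aurora A on the spindle, and CCNB1, the mitotic cyclin B1, had a median LGR4-/- difference of -0.01 and a range from -0.35 to 0.30 on the log2(FPKM+1) scale. On that scale 0 of the 19 differed 1.5-fold in both LGR4-/- libraries, against 3.09% of all genes lower and 2.61% higher, and 0 did so with R-spondin2, against 0.536% higher and 1.46% lower. A count of 0 among 19 genes is close to these shares. TPX2 was at 107.0, 113.1, 102.7 and 109.7 FPKM in control, R-spondin2, LGR4-/- 1 and LGR4-/- 2. CCNB1 was between 104.8 and 112.2 FPKM.

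**Figure D3:**
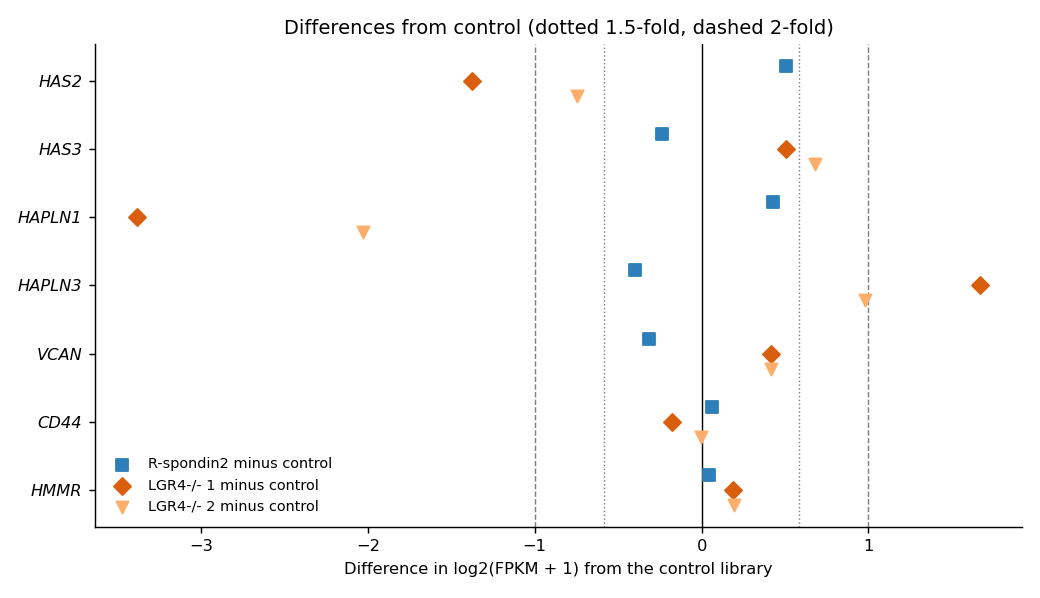
Difference of each of the 7 genes from the control library in log2(FPKM+1) for R-spondin2 and the 2 LGR4-/- libraries, 1 point per library. Dotted lines mark 1.5-fold and dashed lines 2-fold; HAPLN1 lies at -3.38 and -2.03 and HAPLN3 at 1.67 and 0.98 in the LGR4-/- libraries, and no R-spondin2 point passes a dotted line.

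Counted by threshold on the log2(FPKM+1) scale, 1 of the 7 genes, HAPLN1, was at least 2-fold lower in both LGR4-/- libraries, against 1.08% of all 12697 genes. None was at least 2-fold higher in both, against 0.236% of all genes. HAPLN3 missed this threshold in LGR4-/- 2 at 0.98, and passed it in both with a pseudocount of 0.1. At 1.5-fold, HAPLN1 and HAS2 were lower in both, against 3.09% of all genes, and HAPLN3 was higher in both, against 2.61%. HAS3 passed 1.5-fold in LGR4-/- 2 at 0.68 but not in LGR4-/- 1 at 0.51. The group was chosen by this comparison, so nothing is read from these counts. With R-spondin2, 0 of the 7 genes were 1.5-fold higher and 0 were 1.5-fold lower, against 0.536% and 1.46% of all genes. The median difference of the 7 genes was 0.04 with R-spondin2 and 0.19 in the LGR4-/- mean, beside -0.008 and 0.02 over all genes.

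The 2 LGR4-/- libraries differed from each other in 3 of the 7 genes. HAPLN1 was 2.87-fold (interval 2.48 to 3.33) and HAS2 was 1.56-fold (interval 1.47 to 1.66) higher in LGR4-/- 2 than in LGR4-/- 1. At least 1.5-fold higher were 1.35% of all genes. HAPLN3 had a ratio of 0.598 (interval 0.481 to 0.741), and 1.06% of all genes were at least 1.5-fold lower. In each of these 3 genes LGR4-/- 2 lay nearer to control, as it did for LGR4 itself. Over all genes too, the SD of the differences from control was smaller in LGR4-/- 2, at 0.315 against 0.410. HAS3 lay farther from control in LGR4-/- 2, at 0.68 against 0.51 in LGR4-/- 1 (log2). VCAN, at a ratio of 0.998, and HMMR, at 1.00, were at the same level in both libraries within intervals of 0.931 to 1.07 and 0.890 to 1.13.

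VCAN and HAPLN1 lie next to each other on chromosome 5 with 0 protein-coding genes between them in the RefSeq gene order. Each of the other link proteins also sits beside a lectican, HAPLN3 beside ACAN, HAPLN2 beside BCAN and HAPLN4 beside NCAN. Not all neighbours on the chromosome shared a pattern. XRCC4, a DNA repair gene beside VCAN, was at 6.72, 7.52, 5.79 and 6.91 FPKM in control, R-spondin2, LGR4-/- 1 and LGR4-/- 2. EDIL3, a secreted integrin ligand on the other side of HAPLN1, was at 4.32, 3.91, 7.59 and 6.89 FPKM, an order like that of VCAN and unlike that of HAPLN1. COX7C, a subunit of the respiratory chain, was at 328.04, 293.9, 495.74 and 468.43 FPKM, also in the order of VCAN. Its LGR4-/- differences were 0.59 and 0.51 (log2). TMEM167A, RPS23 and RASA1 were close to control in the other libraries, and the value farthest from it was 0.22 (log2) for TMEM167A in LGR4-/- 2. ACAN stayed at 0.34 FPKM or less beside HAPLN3.

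**Figure D4:**
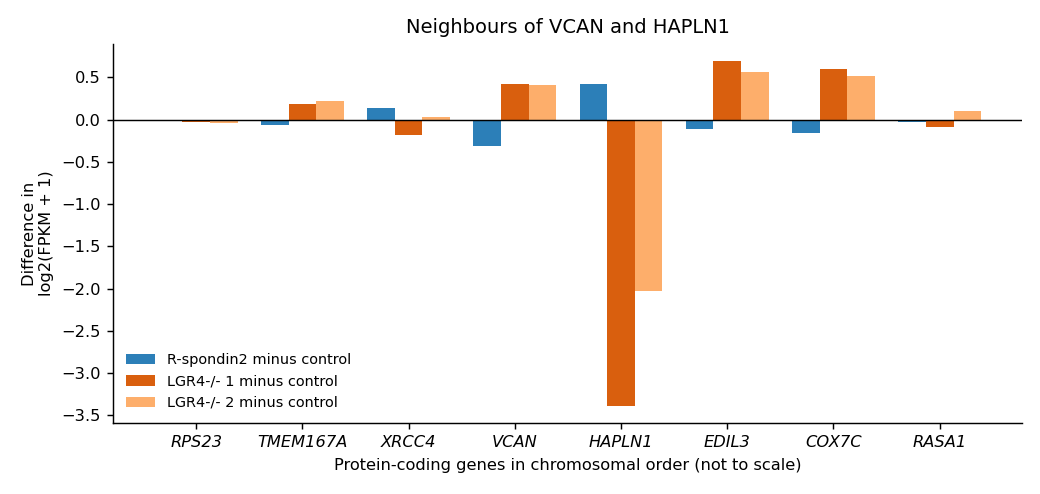
Differences from control in log2(FPKM+1) for the protein-coding genes around VCAN and HAPLN1, in chromosomal order and not to scale, with 1 bar each for R-spondin2, LGR4-/- 1 and LGR4-/- 2. The bars of HAPLN1 reach -3.38 and -2.03, while those of its neighbours VCAN and EDIL3 point upwards in the LGR4-/- libraries.

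The RefSeq promoter windows of these neighbours are shown because the 2 genes lie side by side and differed in opposite directions. Each holds 250 bases before and 50 bases after the annotated start, 5′ to 3′ on the strand of the gene. The HAPLN1 window is chr5:83720806-83721105 of GRCh38.p14 on the minus strand, and the VCAN window is chr5:83471494-83471793 on the plus strand. The HMMR window, chr5:163460382-163460681 on the plus strand, is shown for its motifs. Windows were found for 6 of the 7 genes, and none for HAS2. Short motifs were searched on both strands, and capitals mark every match. The core of the TCF/LEF site, through which WNT signals act on genes, was searched as CTTTGA. The T-box core was searched as AGGTGT and the core bound by GATA factors as AGATAA. The TATA box was searched as TATAAA, and the CCAAT box, which the factor NF-Y binds, by its name. The cell cycle genes homology region (CHR) was searched as TTTGAA, which overlaps the TCF/LEF core when preceded by a cytosine.
HAPLN1: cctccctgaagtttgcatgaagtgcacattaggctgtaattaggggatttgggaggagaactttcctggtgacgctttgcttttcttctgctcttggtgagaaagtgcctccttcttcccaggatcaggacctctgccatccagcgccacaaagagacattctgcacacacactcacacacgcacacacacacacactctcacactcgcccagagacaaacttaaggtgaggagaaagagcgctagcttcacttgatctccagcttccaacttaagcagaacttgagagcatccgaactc
VCAN: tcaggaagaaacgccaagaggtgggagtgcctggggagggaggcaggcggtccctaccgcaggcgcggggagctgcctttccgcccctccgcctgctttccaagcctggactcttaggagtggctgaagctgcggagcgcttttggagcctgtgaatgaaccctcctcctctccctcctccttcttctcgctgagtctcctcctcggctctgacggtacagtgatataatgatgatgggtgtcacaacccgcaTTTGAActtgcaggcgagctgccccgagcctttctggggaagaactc
HMMR: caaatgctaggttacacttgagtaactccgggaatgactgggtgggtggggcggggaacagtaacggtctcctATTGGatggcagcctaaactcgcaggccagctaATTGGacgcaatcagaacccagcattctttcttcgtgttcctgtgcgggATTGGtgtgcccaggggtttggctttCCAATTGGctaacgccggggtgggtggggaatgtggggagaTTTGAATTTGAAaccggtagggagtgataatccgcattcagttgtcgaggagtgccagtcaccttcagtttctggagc

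The HAPLN1 window held 0 matches to these motifs, and the windows of HAPLN3 and CD44 held none either. The VCAN window held 1 match, to TTTGAA, which 15.2% of the 35116 promoter windows hold. The HAS3 window held 1 match to CTTTGA, a motif in 12.9% of all windows. The HMMR window held 5 matches to CCAAT, of which the last 2 overlap, and 2 adjacent matches to TTTGAA at 28 and 22 bases before the start (-28 and -22). At least 5 matches to CCAAT were in 0.359% of all windows. Both CCAAT and TTTGAA were in 11 of the 19 windows of the mitotic partners of HMMR (57.9%), against 5.90% of all windows. The share of windows with AGGTGT was 11.4%, with AGATAA 10.3%, with TATAAA 11.5% and with CCAAT 34.6%. The HAPLN1 window was 50% G and C with 6 CpG, and the VCAN window 60.3% with 15 CpG, beside medians of 58.7% and 14 over all windows. These are matches of letters and not sites shown to be bound.

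The rest of the hyaluronan pathway was taken from lists written by function. In all of these lists, fold thresholds were applied to log2(FPKM+1), on which a low gene passes less readily than on FPKM itself. The counts stand beside 3.09% of all genes 1.5-fold lower and 2.61% higher in both LGR4-/- libraries. With R-spondin2 these shares were 1.46% lower and 0.536% higher. A count of 0 in lists this short is close to the shares. Of the hyaluronan breakdown genes, 4 of 7 listed in the files passed the filter, and 0 differed 1.5-fold on the log2(FPKM+1) scale in both LGR4-/- libraries or with R-spondin2. HYAL2, a hyaluronidase anchored to the cell surface, was at 40.5, 39.4, 39.6 and 36.8 FPKM in control, R-spondin2, LGR4-/- 1 and LGR4-/- 2. TMEM2, a transmembrane hyaluronidase, was between 20.9 and 22.2 FPKM. HYAL3, at 1.52, 1.74, 2.66 and 2.80 FPKM, was more than 1.5-fold above control in FPKM in both LGR4-/- libraries but had log2(FPKM+1) differences of 0.54 and 0.59, the first of which is under the threshold of 0.585. Of 16 other receptors and binding proteins, 5 passed the filter and 0 differed 1.5-fold on the log2(FPKM+1) scale; SUSD5, which has a link domain, was the highest in control at 4.06 FPKM, ITIH5, of the family that couples to hyaluronan, was at 2.57 FPKM, and LYVE1, the receptor of lymphatic vessels, was at 0.04 FPKM or less.

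All 10 genes of the nucleotide sugar supply passed the filter. UGP2, which makes the UDP-glucose from which UDP-glucuronic acid is formed, was at 97.0 FPKM in control, 81.3 FPKM with R-spondin2, 191.6 FPKM in LGR4-/- 1 and 155.1 FPKM in LGR4-/- 2. It was the 1 gene of the list that differed 1.5-fold in both LGR4-/- libraries. UGDH, which converts UDP-glucose to the direct precursor of hyaluronan, lay between 30.9 and 33.0 FPKM in all libraries. GPI, an enzyme of glycolysis at the branch to amino sugars, was between 76.5 and 89.5 FPKM. The median of the list was 0.004 in the LGR4-/- mean and -0.01 with R-spondin2 (log2 differences), beside 0.02 and -0.008 over all genes.

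The genes around versican differed more. Like the other lists, theirs was chosen with earlier results of these data known, so the contrast is no independent evidence. The 6 of 7 versican partners past the filter had a median LGR4-/- difference of -0.54 and a range from -1.73 to -0.42 (log2). Against the same control library, their R-spondin2 differences had a median of 0.18 and a range from 0.14 to 0.41. FBN2, a fibrillin of embryonic microfibrils, was at 93.1 FPKM in control, 120.2 FPKM with R-spondin2, 21.9 FPKM in LGR4-/- 1 and 34.0 FPKM in LGR4-/- 2, and was 2-fold lower in both. Tenascin-C, the product of TNC, binds versican, and TNC was at 29.6, 33.4, 11.1 and 15.7 FPKM in the same order and was 1.5-fold lower in both. FBLN1, which encodes the versican ligand fibulin-1, was at 145.2, 160.3, 94.6 and 115.1 FPKM. In each of these genes the LGR4-/- libraries lay below both wild type libraries, as in HAPLN1 and HAS2, whereas in VCAN they lay above. CD44 and HMMR, close to control, were also separated, CD44 below and HMMR above, and the share of all genes so ordered was not counted.

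Of 7 versican-cleaving proteases, 4 passed the filter. ADAMTS9, which cuts versican in the embryonic heart, was at 4.33, 5.81, 1.02 and 1.76 FPKM in control, R-spondin2, LGR4-/- 1 and LGR4-/- 2, 1.5-fold lower in both LGR4-/- libraries. ADAMTS1, the most abundant, was at 17.1, 20.1, 14.2 and 19.6 FPKM, and ADAMTS4 was at 6.21, 5.83, 5.21 and 4.55 FPKM. Among 19 of 21 genes of chondroitin sulfate synthesis, which builds the side chains of versican, 0 differed 1.5-fold on the log2(FPKM+1) scale in both LGR4-/- libraries and the median was -0.0005. In FPKM itself, the sulfotransferases CHST7, at 4.19, 2.31, 7.34 and 6.44 FPKM in control, R-spondin2, LGR4-/- 1 and LGR4-/- 2, and CHST13, at 1.63, 1.80, 3.63 and 2.66 FPKM, were more than 1.5-fold above control in both LGR4-/- libraries. CHST7 was the 1 gene of this list that was 1.5-fold lower with R-spondin2 on the log2(FPKM+1) scale, against 1.46% of all genes. DSE, which epimerizes chondroitin to dermatan, was the most abundant, between 82.8 and 93.6 FPKM. CHPF, a polymerizing factor, was between 33.1 and 39.0 FPKM.

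Of the 10 genes around CD44, MMP14, a membrane protease that sheds CD44, was at 98.5, 126.7, 51.4 and 61.7 FPKM in control, R-spondin2, LGR4-/- 1 and LGR4-/- 2. It was 1.5-fold lower in both LGR4-/- libraries and ESRP1 was 1.5-fold higher. In FPKM itself, MET was also more than 1.5-fold above control in both, at 0.93, 0.92, 1.55 and 1.79 FPKM in the same order. The linkers of CD44 to actin differed among themselves, with MSN (moesin) at 117.4, 144.9, 84.7 and 98.3 FPKM and EZR (ezrin) at 104.3, 91.7, 126.8 and 120.7 FPKM. RDX, another of these linkers, was at 46.0, 57.3, 28.9 and 35.8 FPKM, in the order of MSN.

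**Figure D5:**
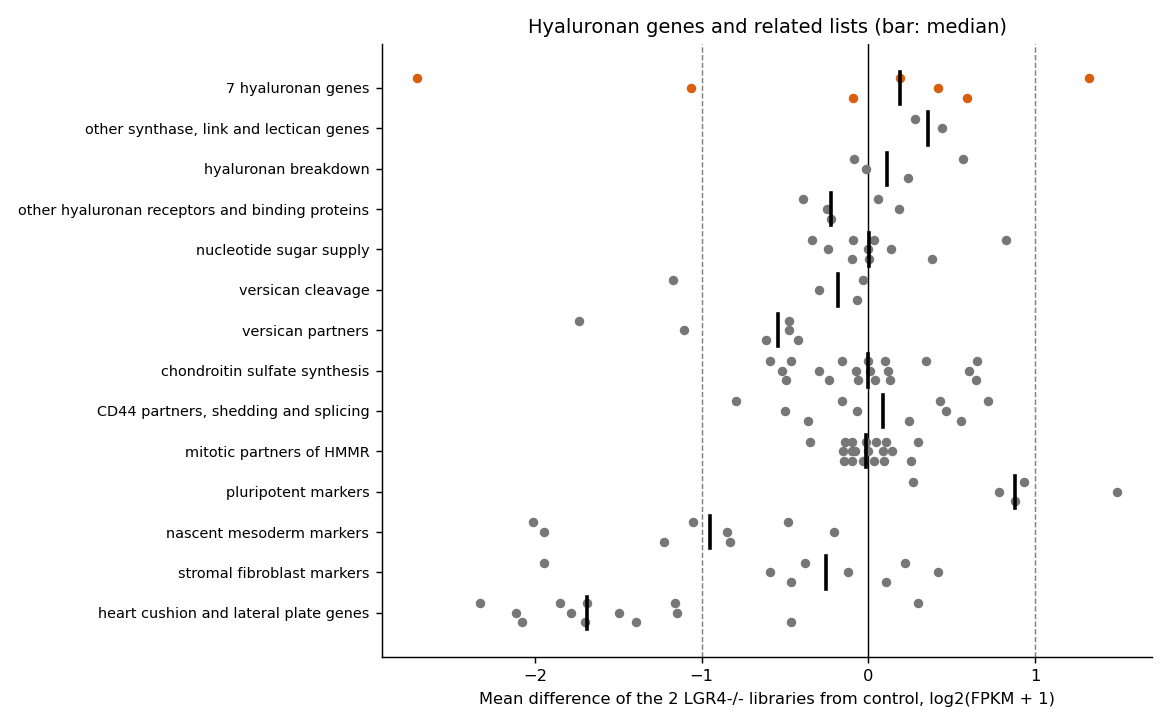
Mean difference of the 2 LGR4-/- libraries from control in log2(FPKM+1), 1 point per gene with a mean of at least 1 FPKM, for the 7 hyaluronan genes (top row) and related lists; black bars mark medians and dashed lines 2-fold. Breakdown, sugar supply and mitotic genes centre near 0, while heart cushion and lateral plate genes have a median of -1.69.

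The genes most like HAPLN1 were sought among those with a mean of at least 10 FPKM, by the root mean square distance of log2(FPKM+1) after centring each gene on its mean over the 4 libraries. They were HAND1 (distance 0.19), BMP4 (0.28), MYL4 (0.29), LGR5 (0.31) and MESP1 (0.33). HAND1, a transcription factor of lateral plate and heart, was at 70.05, 99.85, 8.59 and 19.76 FPKM in control, R-spondin2, LGR4-/- 1 and LGR4-/- 2. LGR5, a further R-spondin receptor, was at 36.7, 46.3, 4.85 and 9.78 FPKM. Among the genes most like VCAN were GGCT (0.0096), RSF1 (0.020), LPCAT3 (0.025) and TLCD1 (0.026). GGCT, an enzyme of glutathione turnover, was at 44.24, 34.76, 58.56 and 58.99 FPKM. For CD44, whose values hardly varied, GSS, SEC61G, UBE2J2 and PPP1CA were among the nearest, at distances of 0.0094 to 0.011, among 6550 genes. The distances rest on 4 libraries.

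Markers of cell types present at this stage also had different levels between the libraries. The summed FPKM of 8 nascent mesoderm markers, such as MIXL1, MESP1 and APLNR, was 1044 in control, 1351 with R-spondin2, 385.3 in LGR4-/- 1 and 592.5 in LGR4-/- 2, the same order as HAPLN1 and HAS2. That of 5 pluripotency markers, such as POU5F1 and LIN28A, was 1136, 873.4, 1888 and 1730. SOX2 was at 19.9, 5.58, 66.0 and 50.7 FPKM in the same order. All of these markers passed the filter in both lists. The mesoderm sum did not hold for each of its genes, and MIXL1 and APLNR were the most abundant of them. KDR was at 34.4, 34.12, 26.8 and 32.87 FPKM in the same order and was not above control with R-spondin2. In LGR4-/- 2, T (brachyury) and KDR lay near control, at log2(FPKM+1) differences of -0.08 and -0.06. For 15 heart cushion and lateral plate genes, of which 13 passed the filter, 9 were 2-fold lower in both LGR4-/- libraries (HAND1, FOXF1, GATA4, GATA6, TBX3, BMP2, BMP4, MSX1 and SNAI2), against 1.08% of all genes, and the median was -1.69. NOTCH1 of the same list went the other way, at 14.51, 12.93, 18.41 and 17.74 FPKM in control, R-spondin2, LGR4-/- 1 and LGR4-/- 2. This list was chosen with earlier results of these data known, so its direction is no independent evidence. GATA6, the most abundant, was at 140.6, 186.8, 39.5 and 61.2 FPKM. In bulk RNA, fewer cells of a type and less RNA per cell cannot be told apart.

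Of 10 stromal fibroblast markers 8 passed the filter, and their summed FPKM was 510.4, 622.9, 388.3 and 477.1 in control, R-spondin2, LGR4-/- 1 and LGR4-/- 2. TAGLN and COL1A2 were the most abundant, and POSTN and DCN were at 0.39 FPKM or less in every library. In the same order, LUM was at 5.49, 9.11, 0.16 and 1.45 FPKM and TAGLN at 265.04, 314.15, 164.98 and 222.85 FPKM. COL1A1 and THY1 did not follow the sum. COL1A1 was at 63.96, 83.6, 74.76 and 74.61 FPKM, above control in both LGR4-/- libraries. THY1 was at 43.99, 36.07, 54.28 and 64.51 FPKM, above control in both and below it with R-spondin2. Of 5 blood and endothelium markers 2 passed the filter (PTPRC and SPN), and the sum was 4.25 to 4.71 FPKM. What part the cell types behind these markers have in the levels of the hyaluronan genes was not tested.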

How the data were processed

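The authors deposited FPKM per gene to 2 decimals, 1 library a file, with NCBI gene identifiers and RefSeq transcripts. The submitters' processing notes name BWA, Bowtie, RSEM and hg19, without versions or roles, and the kit of the libraries is an Illumina TruSeq RNA kit. Filters are not given in the sources used here. FPKM carry the authors' scaling for length and depth, so no count model was applied. Differences were taken in log2(FPKM+1), which understates the change of low genes, and genes averaging under 1 FPKM were left out.

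Depth was the read total that brought values under 0.6 FPKM, for transcripts shorter than 1500 bases, nearest to whole reads, with GENCODE release 29 lengths (GRCh38) for genes with a single transcript. Between 76.0% and 78.2% of these values lay within 0.2 of a whole read. Ratios have 95% exact (Clopper-Pearson) intervals from the implied reads at the shortest listed transcript, for counting error only. Depth and calls were tested on simulated whole reads, drawn at the same transcript lengths and with counting error as the only spread. That setting favors recovery, so the simulation says little about the depth of these libraries. The estimated depth was not tested against a known read total of any library, and the intervals rest on this estimate. Gene order and promoters are RefSeq's (GRCh38.p14).

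The members and lists were chosen with earlier results of these data known. Named genes were the 7 members, LGR4, the 3 neighbours on each side of HAPLN1 and VCAN, the 5 genes of at least 10 FPKM nearest in pattern to HAPLN1, VCAN and CD44, and from each list the genes 2-fold different the same way in both LGR4-/- libraries and the 2 most abundant. For hyaluronan turnover, receptors and lecticans any gene could be named. GYPB, UGDH, TNC, ADAMTS9, CHST7, CHST13, ESRP1, MMP14, MET, RDX, POSTN, DCN, COL1A1, COL3A1, ACTA2, THY1, NOTCH1, KDR and T fall outside this rule and were named after their values were seen. Of the genes nearest in pattern, 1 for VCAN and 1 for CD44 are not reported here. Alternatives were a pseudocount of 0.1, no filter or a mean of at least 5 FPKM, rescaling by the median ratio, another threshold, each LGR4-/- library left out, and the R-spondin2 library in place of control. Python 3.11.15, numpy 2.4.6, pandas 2.3.3, scipy 1.17.1 and matplotlib 3.10.9 were used.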

Additional observations from a re-analysis of the deposited data

How the results depend on the processing

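The count of hyaluronan genes at least 2-fold lower in both LGR4-/- libraries, 1 (HAPLN1), stayed at 1 with a pseudocount of 0.1, with either filter and after rescaling. It was 2 with a threshold of 1.5-fold and 2 against the R-spondin2 library in place of control, in both cases with HAS2 added. With 1 LGR4-/- library left out it was 1 to 2, the second gene being HAS2 when LGR4-/- 2 was left out. The count at least 2-fold higher in both was 0. It became 1 (HAPLN3) with a pseudocount of 0.1, with a threshold of 1.5-fold and against the R-spondin2 library, and was 0 to 1 with 1 library left out, HAPLN3 being counted when LGR4-/- 2 was left out. This count of higher genes was itself added after seeing the data. The R-spondin2 count of 0 at 1.5-fold was also 0 under the other settings.

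The HAPLN1 difference of -2.71 was -2.85 with a pseudocount of 0.1, -2.72 after rescaling, -3.13 against the R-spondin2 library and -3.38 to -2.03 with 1 LGR4-/- library left out. Apart from HAPLN1, the LGR4-/- differences of HAS2, HAS3, VCAN and HMMR became -1.57, 0.83, 0.73 and 0.15 against the R-spondin2 library. A change of filter cannot move the value of a single gene, and leaving out 1 of 2 libraries moves a mean by less than their SD, so these settings show little about stability. The mean filter of 5 FPKM removed CD44 and left it without a value. No replicate stands behind control or R-spondin2. With reads counted at the shortest listed transcript, the counting intervals of CD44 in every comparison and of the R-spondin2 ratios of HAPLN3, HAS3 and HMMR included no difference; longer transcripts imply more reads and narrower intervals.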
